A study of Mus musculus with 7 samples.

Results

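The genes described here are 8 members of the osteocyte programme and of the RANKL axis: Dmp1, Sost, Mepe, Phex, Fgf23, Tnfsf11, Tnfrsf11b and Pth1r. They were chosen by name and matched by symbol and Ensembl identifier, and all 8 were found among the 56854 gene identifiers shared by the count files and among the 17791 genes tested. The material was the whole shoulder joint of 7 mice, 1 poly(A) RNA library per mouse, taken 2 weeks after the supraspinatus tendon of the left shoulder had been repaired. In 3 of the mice the genotype was wild type and in 4 it was Tnc-/-, the loss of tenascin C, a matrix glycoprotein of healing tendon. All 7 had the operation, so no unoperated joint enters any comparison, and the strain, age and breeding of the mice are not given in the sources used here. A whole joint holds bone, marrow, cartilage, muscle, tendon and synovium together, so a level is an average over these tissues.

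Osteocytes are the cells buried in mineralised bone, and they control mineral, bone formation and bone resorption from there. Dmp1 and Mepe are secreted acidic phosphoproteins of the bone matrix, Phex is a membrane endopeptidase whose loss causes phosphate wasting, and Fgf23 is the bone-derived hormone that lowers phosphate reabsorption in the kidney. Sost encodes sclerostin, which binds the Wnt co-receptors of osteoblasts and holds back bone formation. Tnfsf11 encodes RANKL, the cytokine that drives osteoclast formation through its receptor RANK, and Tnfrsf11b encodes osteoprotegerin, a soluble decoy that captures RANKL. Pth1r is the receptor of parathyroid hormone and of the related peptide PTHrP, acts in osteoblasts, osteocytes and chondrocytes, and is a known regulator of Sost and Tnfsf11.

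Promoter sequences are shown for Phex and Fgf23, the members called different, for Dmp1, Sost and Mepe, the osteocyte genes that were not, and for Tnfsf11, the upper term of the RANKL ratio. RefSeq (GRCm38.p6) held a start site for 7 of the 8 members, all but Tnfrsf11b. Each line gives the 250 bases before the start site, 5′ to 3′, taken from the start nearest to the annotated gene start. Capitals mark matches, on either strand, to the basal promoter box TATAAA, to the RUNX core TGTGGT, to TGACG, the core of the cAMP response element, or to the MEF2 motif.
Phex, chrX:157415287-157415536 (minus strand, GRCm38.p6): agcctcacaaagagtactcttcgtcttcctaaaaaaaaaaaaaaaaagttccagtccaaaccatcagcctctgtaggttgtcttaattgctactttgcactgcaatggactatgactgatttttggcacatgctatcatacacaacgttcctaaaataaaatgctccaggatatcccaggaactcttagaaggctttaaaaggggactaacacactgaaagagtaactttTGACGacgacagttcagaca
Fgf23, chr6:127072652-127072901 (plus strand, GRCm38.p6): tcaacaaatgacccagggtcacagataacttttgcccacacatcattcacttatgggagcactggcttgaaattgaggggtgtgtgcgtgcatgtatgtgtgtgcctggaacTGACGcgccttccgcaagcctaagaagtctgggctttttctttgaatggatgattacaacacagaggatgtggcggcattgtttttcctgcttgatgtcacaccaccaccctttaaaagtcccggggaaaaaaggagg
Dmp1, chr5:104202367-104202616 (plus strand, GRCm38.p6): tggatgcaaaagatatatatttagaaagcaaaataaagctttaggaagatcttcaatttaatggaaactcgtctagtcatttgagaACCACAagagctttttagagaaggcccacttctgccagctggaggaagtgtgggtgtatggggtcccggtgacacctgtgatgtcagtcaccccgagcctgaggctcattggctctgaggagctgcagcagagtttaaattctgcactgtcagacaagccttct
Sost, chr11:101967016-101967265 (minus strand, GRCm38.p6): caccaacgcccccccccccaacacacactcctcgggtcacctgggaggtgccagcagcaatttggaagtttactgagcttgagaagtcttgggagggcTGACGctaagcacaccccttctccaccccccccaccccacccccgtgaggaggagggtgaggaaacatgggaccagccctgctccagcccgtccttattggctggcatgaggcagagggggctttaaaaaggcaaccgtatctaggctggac
Mepe, chr5:104325079-104325328 (plus strand, GRCm38.p6): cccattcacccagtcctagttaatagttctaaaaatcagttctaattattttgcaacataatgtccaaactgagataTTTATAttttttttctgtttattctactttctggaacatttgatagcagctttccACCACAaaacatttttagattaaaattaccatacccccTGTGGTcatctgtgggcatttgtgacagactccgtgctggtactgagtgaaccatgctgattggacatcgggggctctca
Tnfsf11, chr14:78308044-78308293 (minus strand, GRCm38.p6): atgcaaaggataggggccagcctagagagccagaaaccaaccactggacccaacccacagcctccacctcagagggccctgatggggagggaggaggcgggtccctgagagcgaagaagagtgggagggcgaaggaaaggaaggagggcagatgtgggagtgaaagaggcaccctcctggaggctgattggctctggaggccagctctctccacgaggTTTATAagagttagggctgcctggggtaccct

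The Tnfsf11 window held TATAAA 32 bases before the start site and the Mepe window 173 bases before, both on the opposite strand. The RUNX core lay 164 bases before the start of Dmp1 and had 2 matches in the Mepe window. The cAMP core lay 20 bases before the start of Phex, 138 before that of Fgf23 and 152 before that of Sost. No printed window held the MEF2 motif. Of all 32851 windows of this length in the table, 12.4% held TATAAA, 14.05% TGTGGT, 17.8% TGACG and 3.2% the MEF2 motif. A match describes letters only, and the cAMP core stood before members that were called (Phex and Fgf23) and before members that were not (Sost and, 161 bases before its nearest start, Pth1r).

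Library depth and the form of the counts bear on every member. Gene counts summed to 13464057 to 18503833 in wild type and 19250322 to 28191101 in Tnc-/-. Tnc itself lay at 326 to 440 CPM (gene counts scaled to a common library total) in wild type and at 32.0 to 50.2 CPM in Tnc-/-, which edgeR put at -3.08 on the log2 scale (SE 0.21; adjusted p = 2.8e-04). Wild-type libraries 2 and 3 stood apart: 1775 receptor genes of smell and pheromone sensing summed to 1455 and 1042 CPM in them, to 86.2 CPM in wild-type library 1 and to 32.9 to 41.3 CPM in Tnc-/-. Of 1064 protein-coding genes that lie inside the span of another gene, 99.1% had 0 counts in all 7 libraries, against 12.3% of the other protein-coding genes. Reads in wild-type libraries 2 and 3 also moved with gene span: of protein-coding genes with at most 9 reads in every Tnc-/- library, the 89 with spans near that of Phex had medians of 11, 300.0 and 234 reads in wild-type libraries 1 to 3, a set chosen after values were seen. The files of each genotype list identifiers that the other lacks (126 in wild type alone, 87 in Tnc-/- alone), and any difference in how the files were made cannot be told apart from genotype.

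To set the members beside this, the reads per kb of gene span over the receptor genes were taken as a rate in each library. The rate was 0.119 reads per kb in wild-type library 1, 1.46 in library 2, 1.13 in library 3, and 0.0512 to 0.0867 in Tnc-/-. Multiplied by the span of each member in GENCODE M21, it gives the reads that the span alone would collect at that rate. Protein-coding genes with at most 9 reads in every Tnc-/- library had medians below such values in wild-type libraries 2 and 3. Those of Phex-like span had 300.0 and 234 reads, against 369 and 285.5 given for Phex. Those of Fgf23-like span had 0 and 0, against 12.4 and 9.59 given for Fgf23. The span reads are therefore uncertain and may be too many. Phex, which spans 253 kb, would collect 369 of its 491 reads in wild-type library 2 (75.2%) and 285.5 of 747 in library 3 (38.2%), but 30.1 of 646 in library 1 (4.65%). Tnfsf11, at 30.6 kb, would collect 44.6 of 82 reads in library 2 (54.4%) and 34.5 of 123 in library 3 (28.0%). For Dmp1, Sost, Mepe, Fgf23 and Pth1r the share stayed at 6.73% or less in the 3 wild-type libraries, and for Tnfrsf11b it reached 15.1% in library 2.

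**Figure D1:**
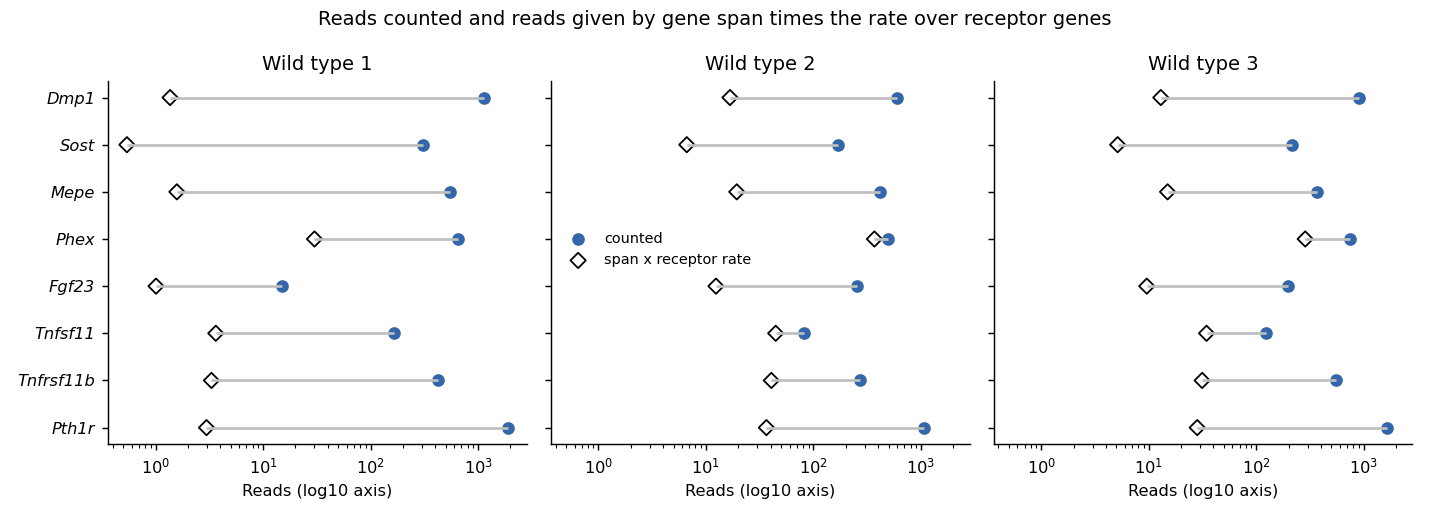
Reads counted for each member (filled points) and reads given by its span times the receptor-gene rate (open diamonds) in the 3 wild-type libraries, on log10 axes in reads. The points nearly meet for Phex in wild type 2, at 491 and 369 reads, and stay far apart for Dmp1, Sost, Mepe and Pth1r.

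Across genes, levels were compared per kb of exon. Pth1r was highest, at 33.6 ± 5.98 CPM per kb in wild type (SD, n = 3) and 31.4 ± 4.50 in Tnc-/- (SD, n = 4). Dmp1 followed at 20.2 ± 3.56 and 19.3 ± 2.90 CPM per kb, next to Mepe at 17.0 ± 1.76 and 18.5 ± 3.56. The mean of Mepe lay within 1 SD of that of Dmp1 in both genotypes, but in wild type the mean of Dmp1 lay above the highest Mepe value, 18.2. Sost stood at 7.15 ± 0.970 and 9.77 ± 3.04 CPM per kb, and Tnfrsf11b at 9.53 ± 3.41 and 5.35 ± 0.797. In wild type these means differed by less than the SD of Tnfrsf11b, and the libraries had 8.08, 6.15 and 7.23 for Sost and 8.07, 7.09 and 13.4 for Tnfrsf11b. Phex had 6.51 ± 1.45 CPM per kb in wild type and 3.17 ± 0.602 in Tnc-/-, and Tnfsf11 3.51 ± 0.688 and 2.66 ± 0.576, the lower of the RANKL pair in both. Fgf23 ranged from 0.447 to 10.3 CPM per kb among the wild-type libraries and from 0.0573 to 0.198 in Tnc-/-, the lowest of the 8 there.

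**Figure D2:**
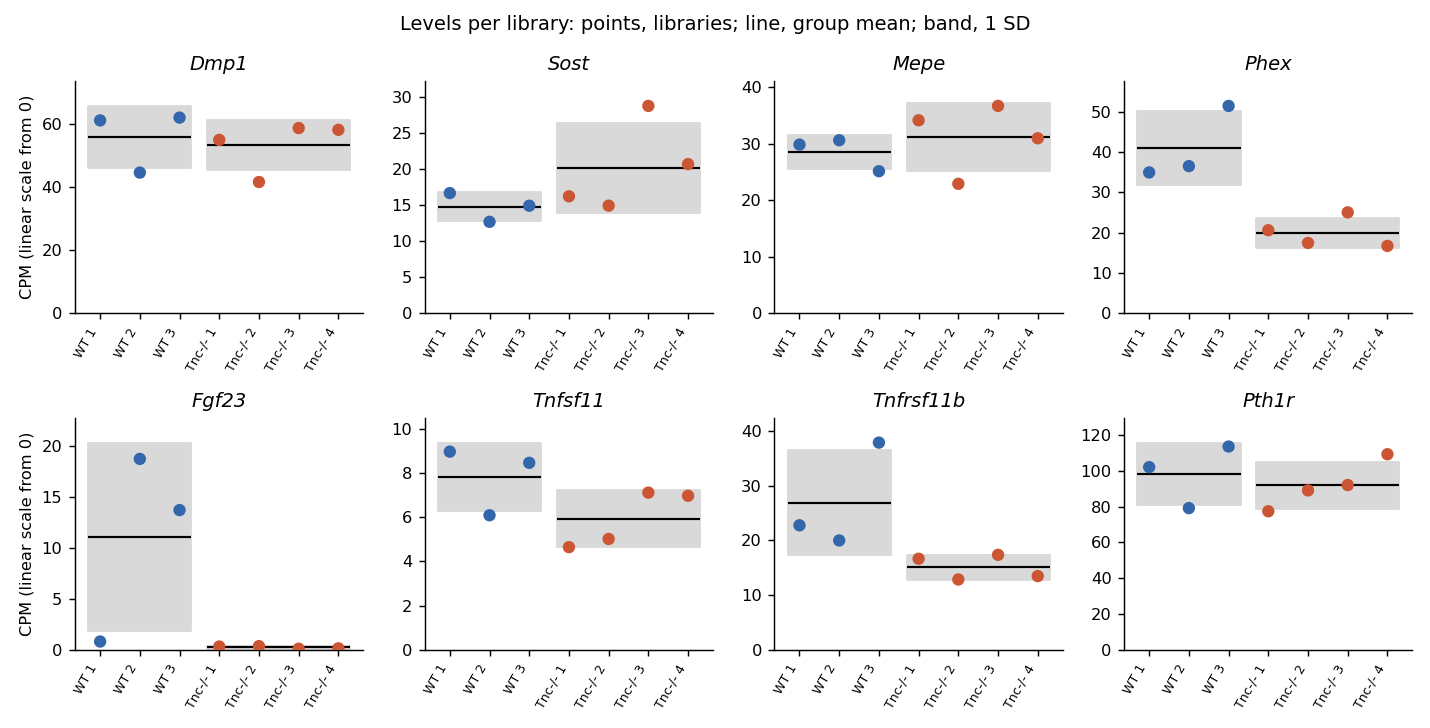
CPM of the 8 members in each library on linear axes from 0, with wild type in blue and Tnc-/- in red; lines are group means (n = 3 and 4) and bands 1 SD. Phex, Fgf23 and Tnfrsf11b have no overlap between the groups, and wild-type library 1 is near the Tnc-/- libraries for Fgf23.

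The comparison of the genotypes asked which of the 8 genes differed in the repaired joint when tenascin C was missing. Fgf23 and Phex were called, both lower in Tnc-/-, and the other 6 were not (edgeR quasi-likelihood test, adjusted p under 0.05). Of all genes tested, 29.0% were called in either direction and 18.7% were called as lower in Tnc-/-, so 2 of 8 is near the share among all genes. The CPM of the groups did not overlap for Phex, Fgf23 and Tnfrsf11b, 3 of 8, where 34.4% of all tested genes had no overlap. The p-values measure the spread between these 3 and 4 animals. Less RNA per cell and fewer osteocytes in the piece of tissue cannot be told apart in such samples.

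Dmp1, Mepe and Sost did not differ past the threshold. Dmp1 had 61.1, 44.6 and 62.0 CPM in wild type, in order of library, and 54.95, 41.6, 58.7 and 58.1 CPM in Tnc-/-. Its lowest library in each genotype was replicate 2, and the groups overlapped over most of their range. The log2 fold change of Dmp1 was 0.15 (SE 0.18; edgeR, adjusted p = 0.576), and its sign turned with the scaling, to -0.087 with library totals. Mepe read 29.8, 30.6 and 25.1 CPM in wild type and 34.1, 22.9, 36.7 and 30.95 CPM in Tnc-/-. The lowest and the highest Mepe values were both Tnc-/- libraries, and the log2 fold change was 0.34 (SE 0.19; edgeR, adjusted p = 0.209).

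Sost read 16.7, 12.7 and 14.9 CPM in wild type and 16.2, 14.95, 28.8 and 20.7 CPM in Tnc-/-. Tnc-/- libraries 3 and 4 lay above every wild-type library, while libraries 1 and 2 fell within the wild-type range. The log2 fold change of Sost was 0.66 (SE 0.27; edgeR, unadjusted p = 0.0386, adjusted p = 0.0981). Without wild-type library 1, which left the 2 wild-type libraries with high receptor-gene counts, Sost (0.91, adjusted p = 0.00987) and Mepe (0.53, adjusted p = 0.0315) were past the threshold in edgeR, in a fit that called 64.2% of all genes and 4 of the 8 members. With wild-type library 1 as the lone wild-type sample, Sost was at 0.38 (adjusted p = 0.496) and Mepe at 0.17 (adjusted p = 0.68). In that fit, here and for the genes that follow, the spread comes from the 4 Tnc-/- libraries alone and the lone library is assumed to vary like them, so its p-values are not comparable with those of the other fits.

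Phex, the endopeptidase of the phosphate axis, fell in Tnc-/-. Its wild-type values were 34.9, 36.5 and 51.4 CPM and its Tnc-/- values 20.6, 17.4, 25.0 and 16.7 CPM, means of 40.9 ± 9.11 (SD, n = 3) and 19.9 ± 3.78 (SD, n = 4). The groups did not overlap, and the Tnc-/- mean was 48.6% of wild type. The log2 fold change was -0.81 (SE 0.19; edgeR, adjusted p = 0.0161). The lower level was also present against wild-type library 1, where the span adds 4.65% of the reads: 34.9 CPM there against a highest Tnc-/- value of 25.0. With that library alone as wild type the log2 fold change of Phex was -0.70 (SE 0.22), past no threshold (edgeR, adjusted p = 0.0823). After the span reads were taken off, Phex read 33.3, 9.06 and 31.8 CPM in wild type, and its log2 fold change was -0.32 (SE 0.37; adjusted p = 0.574). Wild-type library 2 then lay below all Tnc-/- libraries, and the subtraction ended the call of Phex. DESeq2 with the Bonferroni adjustment that the study names did not call Phex (-0.85) and called Fgf23, among 9.29% of all genes.

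Fgf23, the phosphate hormone, fell in Tnc-/- by the largest fold of the 8, on few reads. It had 15, 252 and 199 reads in wild-type libraries 1 to 3 and 9, 7, 2 and 3 reads in Tnc-/- 1 to 4, which is 0.811, 18.7 and 13.7 CPM against 0.319, 0.358, 0.104 and 0.143 CPM. The groups did not overlap, yet wild-type library 1 lay far nearer to Tnc-/- than to wild-type libraries 2 and 3. The log2 fold change was -5.26 (SE 0.97; edgeR, adjusted p = 0.00829), and against wild-type library 1 alone it was -1.66 (SE 1.04; adjusted p = 0.347). With the log2 receptor-gene sum as a covariate it was -0.35 (SE 0.71, edgeR adjusted p = 0.839), though that sum did not overlap between the genotypes. The call of Fgf23 rests on wild-type libraries 2 and 3. limma voom, which called 5.47% of all genes, did not call Fgf23 either (-4.29, adjusted p = 0.186).

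The span of Fgf23 (8.51 kb) accounts for 12.4 of its 252 reads in wild-type library 2 and 9.59 of 199 in library 3 at the receptor-gene rate, and its fold change after subtraction was -5.52 (edgeR, adjusted p = 0.014). Other genes of like span were high in the same libraries. Among 1164 protein-coding genes within 1.5-fold of the Fgf23 span and with at most 9 reads in every Tnc-/- library, the median was 0 reads in each wild-type library, and the 90th percentile was 5, 56 and 40 reads in libraries 1 to 3. In both library 2 and library 3, 7 of them (0.601%) had at least as many reads as Fgf23. These 7, chosen after their values were seen, were Ndufb8, Gm11541, Smok2a, Mog, Gpx5, Tcl1 and Dppa4. Mog, a myelin gene, had 11, 417 and 279 reads in wild-type libraries 1 to 3, Gpx5, an epididymal gene, 8, 378 and 307, and Dppa4, a gene of pluripotent cells, 7, 309 and 327. Ndufb8 was different, with 792, 823 and 424 reads in wild type and 0 in every Tnc-/- library, so it was high in library 1 as well. For Ndufb8 a difference in how the files of each genotype were made cannot be told apart from expression. The part of wild-type libraries 2 and 3 in the level of Fgf23 was not tested beyond the fits given here.

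RANKL and its decoy were both measured at modest levels. Tnfsf11 read 8.97, 6.09 and 8.47 CPM in wild type and 4.65, 5.02, 7.12 and 6.97 CPM in Tnc-/-. Wild-type library 2 lay inside the Tnc-/- range, and the log2 fold change of Tnfsf11 was -0.19 (SE 0.35; edgeR, adjusted p = 0.721). Tnfrsf11b read 22.8, 19.98 and 37.9 CPM in wild type and 16.6, 12.9, 17.4 and 13.5 CPM in Tnc-/-. No Tnc-/- value reached the lowest wild-type value, and wild-type library 3 was highest by a wide margin. After the span reads were taken off the groups overlapped, with 16.96 CPM in wild-type library 2 and 17.3 CPM in Tnc-/- library 3. The log2 fold change of Tnfrsf11b was -0.60 (SE 0.24; edgeR, unadjusted p = 0.0323), which missed the threshold (adjusted p = 0.0868). It passed in edgeR with library totals as scaling (-0.85, adjusted p = 0.0353; 30.9% of all genes called) and without wild-type library 2 (-0.79, adjusted p = 0.0467; 16.0% called), and it was -0.32 (adjusted p = 0.353) without wild-type library 3.

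The ratio of Tnfsf11 to Tnfrsf11b, taken within each library from the counts, needs no scaling between libraries. It was 0.394, 0.305 and 0.224 in wild-type libraries 1 to 3 and 0.279, 0.390, 0.410 and 0.518 in Tnc-/- 1 to 4. The lowest value was wild type and the highest Tnc-/-, with overlap between them. The 95% Wilson intervals, which cover counting error only, ran from 0.184 to 0.272 for the lowest library and from 0.424 to 0.632 for the highest. The means were 0.308 ± 0.0854 (SD, n = 3) and 0.399 ± 0.0977 (SD, n = 4), a log2 difference of 0.38 (p = 0.343 in an exact permutation test, two-sided, over 35 splits, which cannot go below 0.0571). After the span reads were taken off, wild type read 0.389, 0.164 and 0.171 and the log2 difference was 0.80 (exact permutation test, p = 0.171). Against wild-type library 1 alone the log2 difference was -0.015, so its sign rests on wild-type libraries 2 and 3.

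Within the osteocyte group, ratios to Dmp1 ask whether the genes kept their proportions. Sost to Dmp1 was 0.273, 0.285 and 0.241 in wild type and 0.296, 0.360, 0.491 and 0.357 in Tnc-/-, with no overlap. Its log2 difference was 0.48, with 4 of 4 Tnc-/- libraries above every wild-type library (exact permutation test, p = 0.0571, the smallest possible; 0.114 after Benjamini-Hochberg adjustment over 4 ratios). Taking off the span reads left it at 0.49. Mepe to Dmp1 was 0.488, 0.687 and 0.405 in wild type and 0.533 to 0.625 in Tnc-/-, a log2 difference of 0.18 (exact permutation test, p = 0.457). Phex to Dmp1 was 0.571, 0.818 and 0.8291 in wild type and 0.374, 0.419, 0.426 and 0.287 in Tnc-/-, without overlap. Its log2 difference was -0.97 (exact permutation test, p = 0.0571, the smallest possible; adjusted 0.114), but after the span reads were taken off it was -0.12 with overlapping groups (p = 0.857, exact permutation test).

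**Figure D3:**
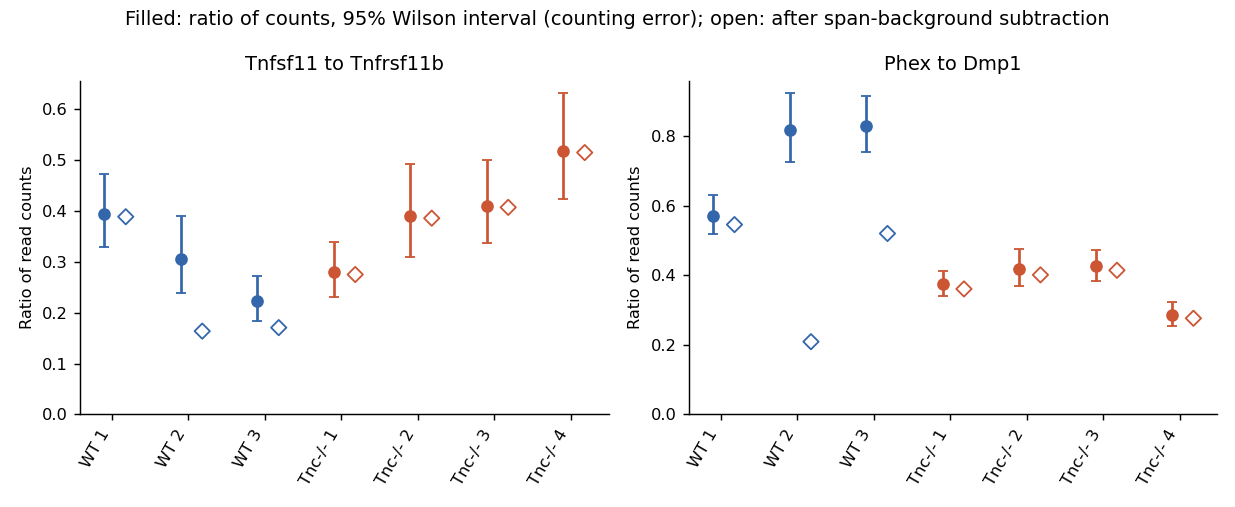
Ratios of read counts per library for Tnfsf11 to Tnfrsf11b and for Phex to Dmp1, on linear axes from 0; bars are 95% Wilson intervals for counting error, and open diamonds give the ratio after span reads were taken off. Wild type 2 falls from 0.818 to 0.209 for Phex to Dmp1, while the Tnc-/- points hardly move.

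Pth1r, the parathyroid hormone receptor, read 102, 79.1 and 113.5 CPM in wild type and 77.4, 89.0, 92.0 and 109 CPM in Tnc-/-. The groups overlapped over most of their range, with the lowest value in Tnc-/- library 1 and the highest in wild-type library 3, and the fitted log2 fold change, 0.13 (SE 0.18; edgeR, adjusted p = 0.627), turned to -0.12 with library totals. In GENCODE M21, Myl3, a muscle myosin light chain gene on the other strand, covers 36.1% of the exon bases of Pth1r. Of protein-coding genes inside another gene, 99.1% had 0 counts, so reads in this overlap may have been left out for both genes. The level of Pth1r is therefore uncertain and may be too low. Of the other members only Phex was overlapped, by small models over 0.465% of its span.

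Fits that treat the receptor-gene reads of wild-type libraries 2 and 3 in different ways were set beside these values. Only the fit against wild-type library 1 left those libraries out. With the receptor-gene covariate edgeR called 2.24% of all genes and 0 of the 8 members, none of which had an unadjusted p under 0.05. That covariate ran from 6.43 to 10.5 in wild type and from 5.04 to 5.37 in Tnc-/-, so it can take up part of a genotype difference. With wild-type library 1 alone it called 4.45% of all genes and 0 members, of which 2 had an unadjusted p under 0.05. After subtraction of the span reads it called 19.3% of all genes and, of the members, Fgf23. In these fits Phex, Fgf23 and Tnfrsf11b stayed lower in Tnc-/-, and Sost and Mepe stayed higher, all but Fgf23 after subtraction without a call. Dmp1 and Pth1r turned to the other sign, and Tnfsf11 was at -0.71, -0.49 and 0.034 in the same order.

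**Figure D4:**
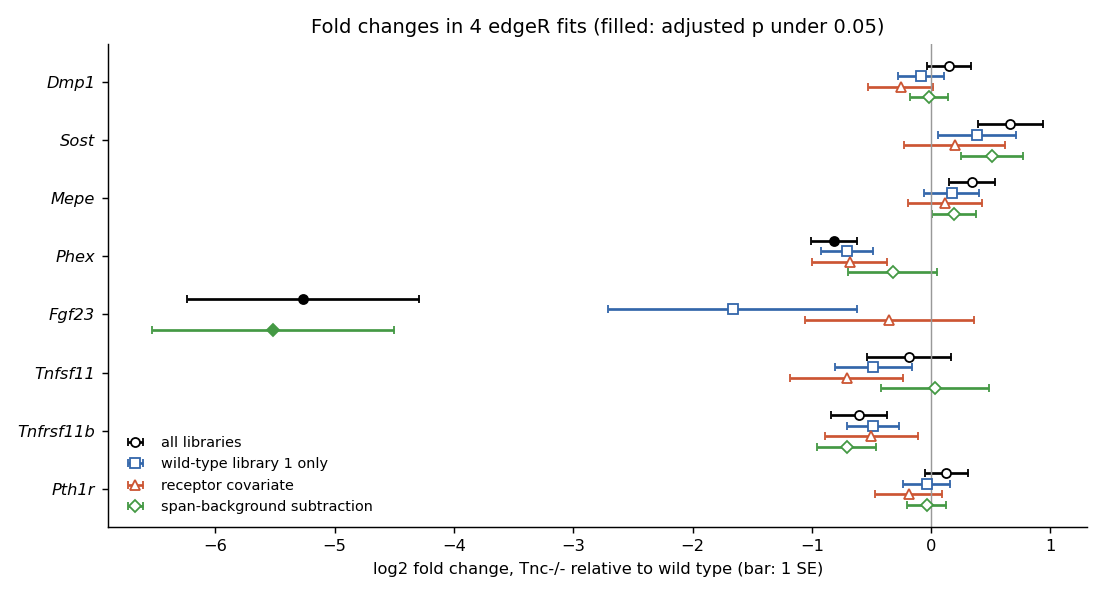
Log2 fold changes of the 8 members, Tnc-/- relative to wild type, in 4 edgeR fits; bars are 1 SE, and filled marks have an adjusted p under 0.05. Fgf23 moves from -5.26 with all libraries to -1.66 against wild-type library 1 and -0.35 with the covariate, while Tnfrsf11b and Phex stay below 0.

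Genes around the members were read from 7 lists. The median log2 fold change of all tested genes was -9.0e-04, and the list counts stand against the 29.0% of all tested genes that were called, 18.7% as lower. No count is read as particular to its list. Among other osteocyte genes 0 of 8 tested rose and 1 fell, with a median of -0.20. The gene that fell was Ptprz1, a receptor phosphatase, from 34.2 ± 13.4 to 13.0 ± 0.968 CPM (-1.15, SE 0.23; edgeR, adjusted p = 0.00977), and it was -0.72 (adjusted p = 0.0646) against wild-type library 1. Its span is 177 kb. Among 13 osteoblast genes 1 rose, and the median was -0.061. Bglap, which encodes osteocalcin, rose from 244 ± 42.2 to 307 ± 29.0 CPM (0.55, SE 0.17; edgeR, adjusted p = 0.0374), although its groups overlapped.

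Of 22 genes of RANK signalling and osteoclasts tested, 3 rose and 2 fell, with a median of 0.12. Tnfrsf11a, which encodes RANK, had 18.7, 55.6 and 47.4 CPM in wild type, by library number, against 10.2 to 14.3 CPM in Tnc-/-. Its log2 fold change was -1.48 (SE 0.31, edgeR adjusted p = 0.0104). Tnfrsf11a was at -0.50 against wild-type library 1 alone and at -0.080 with the receptor covariate (edgeR, adjusted p = 0.91). Calcr, the calcitonin receptor of osteoclasts, fell too (-1.999, SE 0.57; edgeR, adjusted p = 0.0309), with 1.78, 6.02 and 8.40 CPM in wild type and 0.819 to 1.35 CPM in Tnc-/-. Calcr was at -0.55 (edgeR, adjusted p = 0.564) against library 1 alone and at -0.062 (adjusted p = 0.975) with the covariate. Itgb3, an integrin subunit of osteoclasts and platelets, rose by 0.87 (edgeR, adjusted p = 0.0315), and Tcirg1, a proton pump subunit, by 0.54 (adjusted p = 0.0361). Nfatc1, the RANKL-driven transcription factor, rose by 0.45 (edgeR, adjusted p = 0.0439), outside the naming rule, which stops at 4 genes a list.

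Of 10 cytokines and mediators that induce RANKL, 1 rose and 0 fell, with a median of 0.19. It was Il1b, from 4.84 ± 1.48 to 10.3 ± 2.89 CPM (1.29, SE 0.39; edgeR, adjusted p = 0.0375). Of 11 genes of PTH receptor ligands and signalling 2 rose and 0 fell, with a median of -0.22. Hdac5, a class II histone deacetylase, rose from 93.9 ± 21.2 to 144 ± 9.78 CPM (0.82, SE 0.19; edgeR, adjusted p = 0.0151). Gnas, the stimulatory G protein subunit, read 20.4 to 29.9 CPM in wild type and 1276 to 1487 CPM in Tnc-/-. Its log2 fold change was 5.97 with all libraries and 6.18 against library 1 alone. With the receptor covariate Gnas was at 6.25 (edgeR, adjusted p = 2.0e-05). A difference in how the files of each genotype were made cannot be told apart from expression here, so the jump is uncertain as an expression difference. Of 9 genes of FGF23 action and phosphate handling tested, 1 rose and 1 fell, with a median of 0.0035. Furin, a protease that can cleave FGF23, rose by 0.68 (edgeR, adjusted p = 0.0271), and the receptor Fgfr2 fell by 1.59 (adjusted p = 0.0127), with 91.9 CPM in wild-type library 1 and 367 and 288 in libraries 2 and 3. Against library 1 alone Fgfr2 was at -0.30 (edgeR, adjusted p = 0.246), and with the receptor covariate its sign turned, to 0.22 (adjusted p = 0.654). The span of Fgfr2 in M21, 2961 kb, comes from 1 transcript model far longer than the others, and whether the authors counted over it is not given in the sources used here. Of 11 genes of sclerostin action and Wnt signalling 1 rose and 1 fell, with a median of -0.17. Lrp5, a Wnt co-receptor bound by sclerostin, rose by 0.64 (edgeR, adjusted p = 0.0112), and the Wnt effector Lef1 fell by 1.86 (adjusted p = 0.0188), with overlap of the groups. Lef1 had 7.19, 38.3 and 26.8 CPM in wild type and 4.59 to 7.38 CPM in Tnc-/-. Against library 1 alone it was at -0.25 (edgeR, adjusted p = 0.658), and with the receptor covariate its sign turned, to 0.42 (adjusted p = 0.592). The named genes that rose differed in how far they moved with the receptor covariate. Lrp5 was at 0.60 with it and at 0.60 against library 1 alone, Bglap at 0.47 and 0.46, and Il1b at 0.74 and 0.85. Itgb3 was at 0.17 and 0.42 in these fits, Tcirg1 at 0.089 and 0.26, Nfatc1 at 0.18 and 0.27, Hdac5 at 0.18 and 0.40, and Furin at 0.087 and 0.30. None of these 8 was past the threshold with the covariate (edgeR, adjusted p from 0.211 to 0.873), which does not show that they did not differ. Gnas, which also rose, was past it.

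Markers of the cells that could carry these genes were summed for each library. Osteoblast markers lay at 1038 to 1413 CPM in wild type and 1028 to 1273 in Tnc-/-, osteoclast markers at 722.5 to 889 and 538 to 747, and chondrocyte markers at 1564 to 2368 and 1143 to 3154, all overlapping. T cell markers, from cells that can make RANKL, lay at 21.1 to 44.4 and 19.0 to 27.0 CPM, and B cell markers, from cells that can make osteoprotegerin, at 62.9 to 127 and 101 to 204. Markers of synovial and tendon fibroblasts lay at 4420.0 to 5189 and 3412 to 5508 CPM. Endothelial markers were lower in every Tnc-/- library (544 to 550 against 368 to 439 CPM), as were Phex, Fgf23 and Tnfrsf11b. Of all tested genes, 34.4% had no overlap between the groups in either direction. Muscle markers (20730.0 to 24190.0 against 24790.0 to 35000.0 CPM) and erythroid markers (4750.0 to 8126 against 10850.0 to 22610.0 CPM) were higher in every Tnc-/- library, and marrow neutrophil markers overlapped (2133 to 4145 against 4001 to 7085 CPM). Acp5, Col10a1, Ms4a1, Scx and Alas2, 1 defining marker each of osteoclasts, hypertrophic chondrocytes, B cells, tendon and red cell precursors, had 0 reads in all 7 libraries, and each lies inside another gene. The part of these tissues in the levels of the 8 members was not tested.

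Likeness of pattern was taken as Pearson r of log2 CPM over the 7 libraries, among the 12295 genes that averaged 5 CPM or more. Nearest to Dmp1 were Enpp5 (r = 0.960), Zcchc3 (r = 0.959) and Pdcd6 (r = 0.951). Nearest to Tnfsf11 were Ccnd2 (r = 0.978), Lrrc57 (r = 0.959) and Rab11fip4 (r = 0.957), and nearest to Tnfrsf11b were Pdcl (r = 0.987), Pafah1b2 (r = 0.980) and Xpo4 (r = 0.974). None of these 9 is another of the 8 members. The 7 points mix 3 wild-type and 4 Tnc-/- libraries, so a difference between the genotypes or their files enters r, and the values describe these libraries only.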

How the data were processed

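The authors deposited 1 file of unnormalised gene-level read counts for each library. Per the submitters' processing notes, FastQC 0.11.9, HISAT2 2.2.1, HTSeq 2.0.2 and DESeq2 1.38.3 were used with GRCm39 (mm39); options are not given in the sources used here. The 5 rows that name no gene, 30.1 to 32.7% of the reads listed for Tnc-/-, were left out. Gene spans came from GENCODE M21 (GRCm38), which held 91.5% of the identifiers, and served only for lengths and overlaps.

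The 8 genes and all lists were chosen with earlier results of these data known. Genes were fitted with edgeR 4.0.16 in R 4.3.3 (filterByExpr, TMM, robust quasi-likelihood F test, genotype as the 1 term) over all 17791 genes that passed the filter, with Benjamini-Hochberg adjustment and a threshold of 0.05. The SE was taken from the log2 fold change and its F statistic (fold change over root F). Printed CPM use the gene counts of each library with no further scaling, while fold changes use TMM factors of 0.914 to 0.960 in Tnc-/- and 1.01 to 1.15 in wild type. Library totals in place of TMM shifted the median of all genes to -0.24. The study names DESeq2 with Bonferroni adjustment, kept here as an alternative. Single ratios were compared by exact two-sided permutation tests over 35 splits. Called genes of each list are named, up to 4 by smallest p, except 1 osteoblast gene that is not reported here. The fitting step was tested on simulated data. Alternatives were DESeq2 1.42.0 with either adjustment, limma voom 3.58.1, other scalings and filters, leaving out libraries, the replicate number as a block, a covariate of the log2 summed receptor-gene CPM, and subtraction of span reads. Number-matched libraries did not pair: correlations of their deviations were -0.0287, 0.0731 and -0.0135.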

Additional observations from a re-analysis of the deposited data

Results flagged for a closer look

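The spacing of the 4 Tnc-/- values was examined for 22 quantities, and 1 had an isolated value, where chance gives about 1 in 20. It was the summed level of erythroid markers in Tnc-/- library 1, at 22610.0 CPM against 10850.0 to 12810.0 CPM in the others, a gap of 0.833 of the whole range. The 8 genes and their 4 ratios showed no such library.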

How the results depend on the processing

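Over all genes the 5159 calls became 1653 with DESeq2 and Bonferroni adjustment, 973 with limma voom, 1932 with the replicate block, 399 with the receptor covariate, 3166 after span subtraction, 825 against wild-type library 1 alone, and 2229 (without wild-type library 3) to 14113 (without wild-type library 1) with 1 library left out. Of the 8 genes, 2 calls became 1 with DESeq2 and Bonferroni adjustment (Fgf23), limma voom (Phex), a minimum of 10 counts in every library (Phex; Fgf23 was not tested) and span subtraction (Fgf23). There were 0 calls with the replicate block, the covariate or wild-type library 1 alone, and 1 to 4 with 1 library left out. With the replicate block in edgeR, Fgf23 was at -4.50 (adjusted p = 0.0696) and Phex at -0.74 (0.0514). For the log2 ratio of Tnfsf11 to Tnfrsf11b, the block was the mean difference of number-matched libraries 1 to 3. It was 0.24, with Tnc-/- library 4 left out. Phex lost its call without wild-type library 3 (-0.65, edgeR adjusted p = 0.0734) or Tnc-/- library 2 (-0.76, 0.0511) or 4 (-0.75, 0.0512). Fgf23 kept it in all 7 such fits. Dmp1 turned to -0.087, -0.0057, -0.087, -0.25 and -0.019, and Pth1r to -0.12, -0.021, -0.037, -0.19 and -0.038, with library totals, without wild-type library 2, against library 1 alone, with the covariate and after span subtraction. Tnfsf11 turned to 0.075 without wild-type library 1 and 0.034 after span subtraction. With 1 library left out, Dmp1 lay between -0.0057 and 0.37, Pth1r between -0.021 and 0.30 and Tnfsf11 between -0.35 and 0.075. The Tnfsf11 to Tnfrsf11b difference turned to -0.015 against wild-type library 1 alone and otherwise lay between 0.17 and 0.80 in 12 alternatives. Exact permutation p ran from 0.171 to 0.8, where the block permuted the signs of the paired differences. At these depths Fgf23 (2 to 9 reads in Tnc-/-) and Tnfsf11 (82 to 166 reads) are the least precise of the 8. The cause of each change was not tested.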
